A study of Mus musculus with 18 samples.

Results

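The transcripts of 9 genes for neuronal RNA-binding and splicing proteins were followed across mouse small cell lung cancer (SCLC) tumors of 3 genotypes. These were Elavl2, Elavl3, Elavl4, Nova1, Nova2, Srrm4, Rbfox1, Rbfox3 and Ptbp2, with Ptbp1 added as the non-neuronal counterpart. Together they are 10 of the 46078 genes in the RNA-seq count table. Their open chromatin was followed in the 152 of 111664 ATAC-seq peaks that overlap the span from 5000 bp upstream of each gene to its end. ATAC-seq counts sequenced reads where a transposase can cut the DNA. The genes were taken by name.

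All 3 genotypes carry conditional alleles of Rb1 and Trp53 and of another retinoblastoma family gene, given as Rb1L/L; Rbl1L/L; p53L/L in the sample labels and as Rbl2 in the account of the Cre treatment. TKO tumors carry these alleles alone. TKO;Carm1 tumors (CARM1 knockout) also carry the conditional Carm1L/L allele, and CARM1 is an arginine methyltransferase. TKO;NfibR388K tumors (NFIB mutant) carry a knock-in allele in which the NFIB arginine that CARM1 methylates is a lysine. The knock-in allele is present in all cells, while the conditional alleles are lost only where Cre acted. Adenoviral Cre, whose promoter is not given in the sources used here, was given into the trachea at 8 weeks of age, and tumors were collected 28 weeks after that. Each genotype and assay had 3 libraries, from separate animals, and the study asked whether the 2 changes act alike on expression and chromatin. What was sequenced is described in more than 1 way, as tumor biopsies, as cells sorted by a Cre-dependent tdTomato reporter and, for ATAC-seq, as cancer cell lines.

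Neurons and neuroendocrine cells carry RNA-binding proteins that most other cells lack. The Hu proteins (Elavl genes) bind AU-rich stretches of messages and stabilise them, the Nova and Rbfox proteins steer which exons are kept, and Srrm4 drives the inclusion of very short neuronal exons. Ptbp1 represses many neuronal exons in most cells, and its neuronal relative Ptbp2 takes its place as neurons form. SCLC is a neuroendocrine cancer, and Hu and Nova proteins are known as targets of the antibodies in neurological syndromes that accompany it in patients.

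RNA-seq counts summed to between 15848866 and 20915057 per library and ATAC-seq counts on peaks to between 26917178 and 47653979. At most 3 counts in a library were treated as no detection, and this limit was 0.131 to 0.203 CPM (counts per 1000000 reads, scaled between libraries by edgeR's TMM method) in RNA-seq and 0.0576 to 0.127 CPM in ATAC-seq. Reads carried no molecular identifiers and PCR copies are not separate molecules, so such limits speak of counting error alone. Carm1 transcripts had 97.6, 103.0 and 44.5 CPM in TKO, 63.3, 79.0 and 50.7 CPM in the CARM1 knockout and 100.3 to 103.9 CPM in the NFIB mutant, and were not called (log2 fold change -0.34, adjusted p = 0.41, edgeR, in the knockout). Counts over whole genes do not separate a deleted exon, so they do not check the labels. Nfib had 419.6 to 579 CPM in TKO, 74.4 to 215.6 CPM in the CARM1 knockout and 83.2 to 104.9 CPM in the NFIB mutant, and was called lower in both (-2.06 and -2.49). The 12 neuroendocrine markers summed to 1815 to 4671 CPM in TKO, to 59.3, 189 and 2012 CPM in CARM1 knockout replicates 1, 2 and 3, and to 34.0 to 51.2 CPM in the NFIB mutant. CARM1 knockout replicate 3 thus reached 72.0% of the TKO mean, with 832.0 CPM of its sum from Calca alone, while the next highest mutant library had 6.75%. Values of the 10 genes that move with it are given with and without it. The 8 fibroblast markers ran the other way, at 20.3 to 73.0 CPM in TKO, 15310 to 26960 CPM in the CARM1 knockout and 10620 to 16770 CPM in the NFIB mutant. Of these 8, all were called higher in the CARM1 knockout and 7 in the NFIB mutant. Of the 12 neuroendocrine markers 2 were called lower in the CARM1 knockout, 11 without its replicate 3, and 11 in the NFIB mutant, where Calca was at 3 counts or fewer in each library. The 6 markers of peripheral neurons, which carry the same RNA-binding proteins, summed to 11.5 to 47.8 CPM in TKO, 0.117 to 20.9 CPM in the CARM1 knockout and 1.54 to 7.16 CPM in the NFIB mutant. Leukocyte markers summed to 2.26 to 49.0 CPM in TKO, 171 to 2581 CPM in the CARM1 knockout, with the highest sum in its replicate 3 and 6 of the 7 tested called higher, and 15.03 to 499 CPM in the NFIB mutant, with 2 called higher. Lung epithelial markers ranged from 282 to 633 CPM in TKO, 2.98 to 755 CPM in the CARM1 knockout and 2.16 to 2617 CPM in the NFIB mutant. Endothelial markers summed to 73.8 CPM in CARM1 knockout replicate 3 and to at most 21.2 CPM in any other library. The part of these cells in the results was not tested, and in these bulk libraries fewer cells of a type and less RNA per cell cannot be told apart.

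All of the 9 neuronal genes were lower in every one of the 6 mutant libraries than in any TKO library, while Ptbp1 overlapped between the genotypes. Of all genes tested, 23.3% were lower in all 6 mutant libraries and 22.3% higher. The quasi-likelihood test of edgeR, with p adjusted by Benjamini-Hochberg, at an adjusted p under 0.1 and a log2 fold change of at least 0.8 in size, called 8 of the 10 genes lower in the CARM1 knockout and 9 of 10 lower in the NFIB mutant, and none higher in either. Among all 15514 genes tested, 18.3% were called lower and 20.5% higher in the CARM1 knockout, and 23.5% lower and 22.3% higher in the NFIB mutant. The median log2 fold change of the 10 genes was -4.68 in the CARM1 knockout and -6.96 in the NFIB mutant, beside -0.03 and -0.05 over all genes. All 10 genes passed the filter on low counts, several of them only through their TKO libraries, so these counts describe the genes and lend no support of their own. Without CARM1 knockout replicate 3, which was the highest mutant library for 7 of the 10 genes, 9 genes were called lower in the CARM1 knockout and the median was -8.36. Both comparisons use the same 3 TKO libraries.

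**Figure D1:**
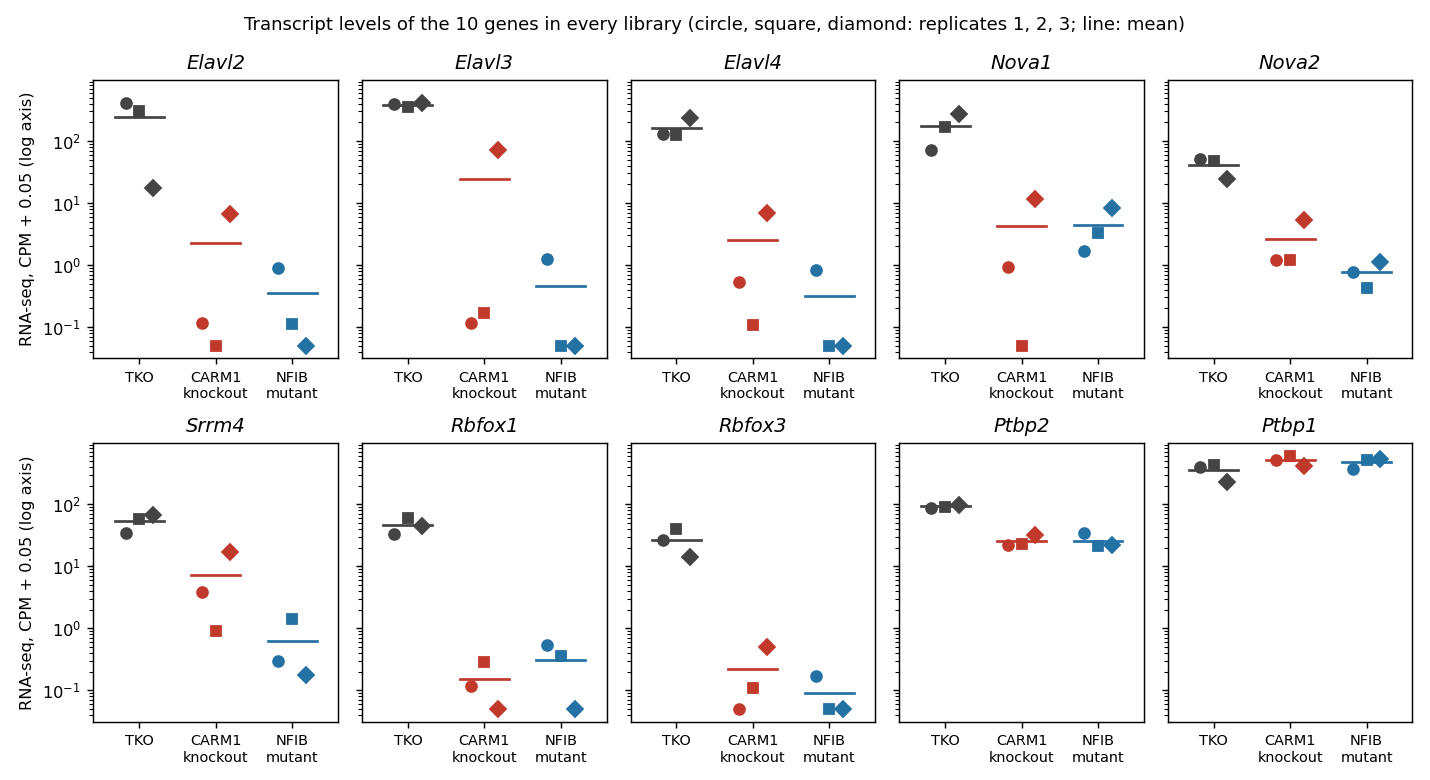
Levels of the 10 genes in CPM plus 0.05 on a log axis, with 1 point per RNA-seq library and a line at the mean of the 3 libraries of each genotype. In all panels but Ptbp1 the 6 mutant points sit below the 3 TKO points, and the red diamond of CARM1 knockout replicate 3 is the highest mutant point for 7 genes.

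Per kb of exon and by the mean of the 3 TKO libraries, the Hu genes had the highest levels of the neuronal genes. On this scale Elavl2 was still the lowest of the 9 in TKO replicate 3. The TKO means per kb were 55.7 CPM for Elavl3, 30 CPM for Elavl4 and 29.5 CPM for Elavl2, and Nova1 followed with 19.7 CPM. Rbfox1 had 10.5 CPM per kb, Ptbp2 10.1, Srrm4 6.10, Nova2 4.90 and Rbfox3 4.63. In this order the libraries of Elavl3 did not overlap those of Elavl4, nor those of Ptbp2 the ones of Srrm4, while all other neighbours overlapped. Ptbp1 had the highest mean, 74.6 CPM per kb, and its libraries overlapped those of Elavl3.

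Elavl3 (ENSMUSG00000003410, chr9:22015005-22052023, minus strand, GRCm38), the Hu gene of maturing and adult neurons, had 390, 354 and 408.5 CPM in TKO replicates 1, 2 and 3. It had 0.0677, 0.117 and 72.4 CPM in CARM1 knockout replicates 1, 2 and 3, and 1.21, 0 and 0 CPM in those of the NFIB mutant. CARM1 knockout replicate 3 kept 18.8% of the TKO mean, and no other mutant library came near it. By edgeR's quasi-likelihood test the log2 fold change was -9.85 ± 2.78 (SE, adjusted p = 0.0242) in the NFIB mutant. That size rests on the 20 counts of NFIB mutant replicate 1 and reached -15.79 in an alternative setting. In the CARM1 knockout the log2 fold change was -3.99 ± 2.07 (adjusted p = 0.163, edgeR) and was not called. Without CARM1 knockout replicate 3 it was -11.86 (adjusted p = 0.00415) and was called. Elavl3 shares exons with the readthrough gene Gm49318, which has no row in the table, so reads of the 2 cannot be told apart.

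The 250 bases before the Elavl3 start are shown because the peak over them lost most of its reads in both mutants. They are RefSeq bases of GRCm38.p6 at chr9:22052024-22052273, read on the minus strand from 5′ to 3′. Capitals mark TTGGC or its complement GCCAA, the core motif of the NFI family.
Elavl3 upstream: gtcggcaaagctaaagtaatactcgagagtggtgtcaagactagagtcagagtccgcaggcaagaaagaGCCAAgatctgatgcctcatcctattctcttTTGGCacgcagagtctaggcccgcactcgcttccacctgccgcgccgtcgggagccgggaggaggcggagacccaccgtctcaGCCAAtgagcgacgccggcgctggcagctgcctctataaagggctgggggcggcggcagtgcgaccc
This stretch held 3 NFI core motifs. Among all 32817 RefSeq promoters, counted from 250 bases before the start to 50 bases after it, 46.7% held the NFI core on either strand.

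Elavl2 (ENSMUSG00000008489, chr4:91250763-91400785, minus strand), a Hu gene also active in germ cells, had 409, 308 and 17.6 CPM in TKO replicates 1, 2 and 3, so that TKO replicate 3 had 4.90% of the mean of the other 2. The CARM1 knockout replicates had 0.0677, 0 and 6.68 CPM, and those of the NFIB mutant 0.850, 0.0616 and 0 CPM. TKO replicate 3 was nearer to CARM1 knockout replicate 3 than to its own genotype on the log scale. The means were 245 ± 203 (SD, n = 3), 2.25 ± 3.83 and 0.304 ± 0.474 CPM. The log2 fold changes were -6.75 ± 2.07 (adjusted p = 0.0375, edgeR) in the CARM1 knockout and -9.61 ± 2.41 (adjusted p = 0.0158) in the NFIB mutant. The former was -12.59 (adjusted p = 0.0105) without CARM1 knockout replicate 3. With a term for the replicate number, the call in the CARM1 knockout was lost (adjusted p = 0.129).

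Elavl4 (ENSMUSG00000028546, chr4:110203722-110351909, minus strand) encodes HuD, the Hu protein first found as the antigen of the paraneoplastic antibodies. It had 128, 126 and 231 CPM in the TKO replicates, 0.474, 0.0582 and 6.90 CPM in the CARM1 knockout and 0.789, 0 and 0 CPM in the NFIB mutant. CARM1 knockout replicate 3, the highest mutant library, had 4.27% of the TKO mean. The mean was 65.2-fold lower in the CARM1 knockout (log2 fold change -6.01 ± 1.64, adjusted p = 0.0254, edgeR). This log2 fold change was -9.22 (adjusted p = 0.00707) without CARM1 knockout replicate 3. In the NFIB mutant it was -9.21 ± 1.95 (adjusted p = 0.00835), a size that rests on the 13 counts of NFIB mutant replicate 1 and reached -14.54 in an alternative setting.

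Nova1 (ENSMUSG00000021047, chr12:46694517-46818929, minus strand), which sets the exons of many synaptic transcripts, varied within TKO with 72.8, 167.5 and 276 CPM. The CARM1 knockout replicates had 0.880, 0 and 11.7 CPM, and the NFIB mutant replicates 1.64, 3.26 and 8.37 CPM. Per kb of exon this left 0.506 CPM in the NFIB mutant, beside 0.0587 for Elavl3 and 0.0866 for Nova2. Nova1 had log2 fold changes of -5.35 ± 1.61 (adjusted p = 0.0358, edgeR) in the CARM1 knockout and -5.28 ± 1.61 (adjusted p = 0.0318) in the NFIB mutant. Without CARM1 knockout replicate 3, which held most of that mutant's Nova1 counts, the former was -8.60 (adjusted p = 0.00813). The call in the CARM1 knockout was lost without its replicate 1 (adjusted p = 0.101, edgeR). Nova1 shares exon bases with Gm33869 on the same strand, which has no row in the table, so their reads cannot be told apart.

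Nova2 (ENSMUSG00000030411, chr7:18925888-18965319, plus strand), the relative that prevails in the developing cortex, had 51.8, 46.9 and 24.4 CPM in TKO. It had 1.15, 1.16 and 5.33 CPM in the CARM1 knockout and 0.728, 0.369 and 1.08 CPM in the NFIB mutant, and it was detected in all 9 libraries. The mean was 16.1-fold lower in the CARM1 knockout (log2 fold change -4.00 ± 0.76, adjusted p = 0.00697, edgeR), with a log2 fold change of -5.09 without its replicate 3. In the NFIB mutant it was 56.6-fold lower (log2 fold change -5.81 ± 0.83, adjusted p = 0.00195). The opposite-strand gene Gm26821 overlaps its exons. Whether the counting used the strand is not given in the sources used here, so how reads of the shared bases were counted is not known.

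Srrm4 (ENSMUSG00000063919, chr5:116439275-116591817, minus strand), the activator of neuronal microexons, had the lowest unadjusted p of the 10 genes between the mutants. TKO libraries had 34.6, 57.6 and 66.8 CPM, the CARM1 knockout 3.79, 0.873 and 17.1 CPM, and the NFIB mutant 0.243, 1.35 and 0.127 CPM. CARM1 knockout replicate 3 had 32.2% of the TKO mean. The mean was 7.32-fold lower in the CARM1 knockout (log2 fold change -2.87 ± 1.12, adjusted p = 0.0794, edgeR), a call that held in 8 of 15 alternative settings and in none of those that left out a TKO library. In the NFIB mutant it was 92.2-fold lower (log2 fold change -6.51 ± 1.35, adjusted p = 0.0078), and the call held in 15 of 15 settings. Srrm4os lies on the opposite strand over its exons, and how reads of the shared bases were counted is not known.

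The 250 bases before the Srrm4 start (chr5:116591818-116592067, minus strand, RefSeq, GRCm38.p6) are shown beside those of Elavl3 because this gene is a known target of the repressor REST. No stretch is in capitals, since none of the searched motifs was found. These were the NFI core, the AP-1 site TGANTCA and the right part of the REST element, which reads GGACAGC.
Srrm4 upstream: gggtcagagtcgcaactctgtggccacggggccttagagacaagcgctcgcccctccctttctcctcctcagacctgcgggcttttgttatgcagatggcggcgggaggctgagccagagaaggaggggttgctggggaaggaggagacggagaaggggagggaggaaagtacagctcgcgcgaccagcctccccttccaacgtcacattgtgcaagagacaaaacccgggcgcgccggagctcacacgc
The 2-part REST element, searched as CAGCACC and GGACAGC 2 bases apart on either strand, was also absent from the central 300 bases of all 152 peaks, and it was found in 0.00896% of all peaks. GGACAGC alone was in the centre of an intron peak of Srrm4 (chr5:116582724-116583219), which was called lower in the NFIB mutant only. It was in 11 of the 152 peaks, beside 7.07% of all peaks. Whether these letters were found or not says nothing of the factor.

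Rbfox1 (ENSMUSG00000008658, chr16:5885355-7411526, plus strand), a splicing factor of neurons and muscle, had 33.5, 61.0 and 43.9 CPM in TKO, 0.0677, 0.233 and 0 CPM in the CARM1 knockout, and 0.486, 0.308 and 0 CPM in the NFIB mutant. Here CARM1 knockout replicate 3 had no count, unlike for the Hu genes, Nova genes and Srrm4. The log2 fold changes were -8.75 ± 1.30 (adjusted p = 0.00292, edgeR) in the CARM1 knockout and -7.40 ± 1.20 (adjusted p = 0.00308) in the NFIB mutant.

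Rbfox3 (ENSMUSG00000025576, chr11:118489762-118911597, minus strand) encodes NeuN, the nuclear antigen used to mark neurons. It had 26.9, 40.1 and 13.9 CPM in TKO, 0, 0.0582 and 0.449 CPM in the CARM1 knockout and 0.121, 0 and 0 CPM in the NFIB mutant. No NFIB mutant library passed 3 counts, so its mean there was at least 145-fold lower, computed against 3 counts in each library. In the CARM1 knockout, with 0, 1 and 8 counts, the mean was 160-fold lower. That value was computed from the mean itself, so it is not comparable with the bound in the NFIB mutant. The log2 fold changes were -7.23 ± 1.39 (adjusted p = 0.00751, edgeR) in the CARM1 knockout, or -9.44 without its replicate 3, and -9.14 ± 1.57 (adjusted p = 0.00377) in the NFIB mutant.

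**Figure D2:**
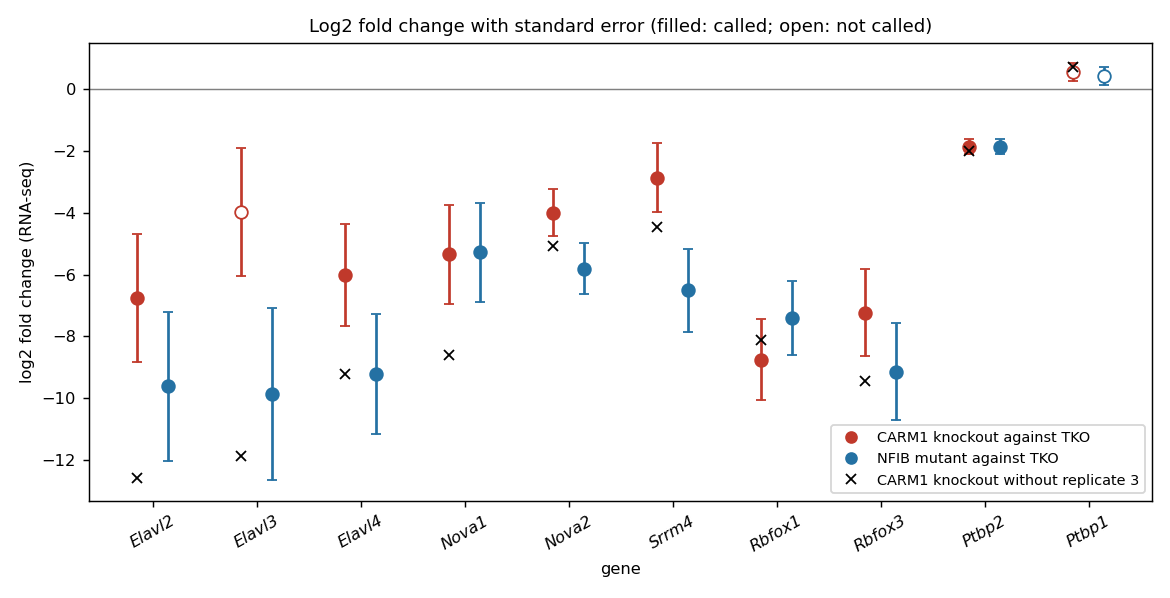
Log2 fold change of each gene against TKO with its standard error from edgeR, filled where called and open where not; crosses give the CARM1 knockout without replicate 3. Elavl3 moved from -3.99 to -11.86 and Srrm4 from -2.87 to -4.46 without that library, while Rbfox1 moved from -8.75 to -8.12.

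The pair of polypyrimidine tract-binding proteins behaved differently from the rest. Ptbp2 (ENSMUSG00000028134, chr3:119718742-119784466, minus strand) had 87.4, 91.75 and 98.8 CPM in TKO, 22.1, 23.1 and 31.5 CPM in the CARM1 knockout, and 34.05, 20.9 and 21.8 CPM in the NFIB mutant. It was thus well detected in all 9 libraries and had a narrow spread. The mean was 3.63-fold lower in each mutant, with log2 fold changes of -1.86 ± 0.24 (adjusted p = 0.00184, edgeR) in the CARM1 knockout and -1.86 ± 0.24 (adjusted p = 0.00143) in the NFIB mutant. These calls held in 16 of 16 alternative settings each.

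Ptbp1 (ENSMUSG00000006498, chr10:79854427-79864771, plus strand), the splicing repressor of non-neuronal cells, had 404, 429 and 228 CPM in TKO, 520, 607 and 418 CPM in the CARM1 knockout and 374, 509 and 544 CPM in the NFIB mutant. The genotypes overlapped, with TKO replicate 3 as the lowest library. The log2 fold changes were 0.54 ± 0.28 (adjusted p = 0.167, edgeR) and 0.43 ± 0.28 (adjusted p = 0.248), and neither was called in any alternative setting. Plppr3, E130317F20Rik and Gm17134 overlap its exons on the opposite strand. How reads of the shared bases were counted is not known, as strand use is not given.

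The ratio of Ptbp2 to Ptbp1 per kb of exon was 0.112, 0.110 and 0.224 in TKO, 0.0219, 0.0197 and 0.0389 in the CARM1 knockout and 0.0470, 0.0212 and 0.0207 in the NFIB mutant. All 6 mutant libraries lay below every TKO library. The means were 0.149 ± 0.0652 (SD, n = 3), 0.0269 ± 0.0105 and 0.0296 ± 0.0151, and the mean TKO ratio was 5.27-fold that of the 6 mutant libraries. The mean log2 ratio was changed by -2.41 in the mutants (two-sided exact permutation test of 3 against 6 libraries, p = 0.0238, the smallest this design allows). The test pools both mutant genotypes. Ptbp2 alone was already lower in all 6 mutant libraries, so this p lends no support of its own. Of all genes tested, 23.3% were lower in all 6 mutant libraries, and each of them would give the same p. With 3 libraries against 3, the smallest possible p is 0.10, so each mutant alone was not tested in this way.

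**Figure D3:**
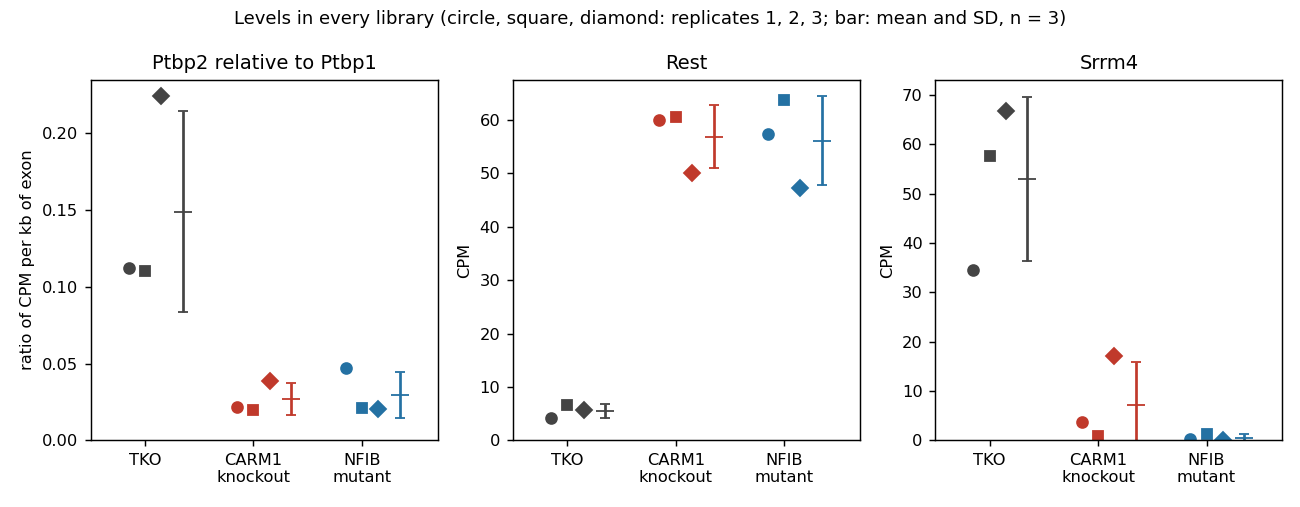
Ratio of Ptbp2 to Ptbp1 per kb of exon (left), Rest (middle) and Srrm4 (right) in CPM, with 1 point per library and the mean ± SD of 3 libraries beside it. The ratio and Srrm4 were lower in all 6 mutant libraries, with CARM1 knockout replicate 3 at 17.1 CPM of Srrm4, and Rest was higher in all 6.

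Rest encodes the repressor of neuronal genes, which binds near Srrm4 and many other neuronal genes and whose own transcript is spliced by Srrm4. It had 4.17, 6.68 and 5.62 CPM in TKO, 60.0, 60.4 and 49.98 CPM in the CARM1 knockout and 57.4, 63.8 and 47.2 CPM in the NFIB mutant. The 2 ranges were far apart, and CARM1 knockout replicate 3 stood with the other mutant libraries. The log2 fold changes were 3.37 ± 0.24 (adjusted p = 0.000331, edgeR) and 3.35 ± 0.24 (adjusted p = 0.000257). Of the 7 genes listed for the REST complex, Rest and the phosphatase genes Ctdsp1 and Ctdsp2 were called higher in the NFIB mutant. In the CARM1 knockout Rest and Ctdsp1 were called higher and 1 gene of the 7 was called lower, the corepressor gene Rcor2, which is named here after its value was seen. That call was lost without CARM1 knockout replicate 3. Of all genes tested, 22.3% were called higher in the NFIB mutant, and 20.5% higher and 18.3% lower in the CARM1 knockout. Gene counts do not separate the splice forms of Rest or of any gene named here.

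Of 11 other listed neuronal RNA-binding proteins, 10 could be tested. In the CARM1 knockout 5 of the 10 were called lower (7 without its replicate 3), and in the NFIB mutant 9 of the 10, with none called higher, where 18.3% and 23.5% of all genes were called lower. The median log2 fold changes of this list were -3.04 and -3.87. Celf3, a splicing factor of the nervous system, had 72.6, 74.7 and 140.0 CPM in TKO, 0.677, 0.873 and 26.6 CPM in the CARM1 knockout and 1.09, 1.23 and 1.01 CPM in the NFIB mutant. It was called lower in both, with log2 fold changes of -3.35 and -6.42, though in the CARM1 knockout in only 6 of 16 alternative settings. The former was -6.89 without CARM1 knockout replicate 3. Celf4, of the same family, was called lower with a log2 fold change of -2.94 in each mutant, and -4.05 in the CARM1 knockout without its replicate 3. The RNA transport factor gene Stau2 and the splicing regulator gene Khdrbs3 changed by -1.67 and -1.15 in the NFIB mutant and had -0.93 and -0.61 in the CARM1 knockout, where they were not called.

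The widely expressed relatives of these genes were called in both directions, with shares near those over all genes. Of 16 genes, 2 were called higher and 3 lower in the CARM1 knockout and 3 higher and 5 lower in the NFIB mutant, with medians of -0.20 and -0.27. Rbfox2, the Rbfox gene of most tissues, had 224 to 279 CPM in TKO and 196 to 258 CPM in the mutants and was not called. Elavl1, which encodes the ubiquitous HuR, had log2 fold changes of -0.44 in the CARM1 knockout (not called) and -0.80 in the NFIB mutant, where the call stood at the threshold and held in 6 of 16 settings. Ptbp3, the third paralog, had 0.57 and 0.34 and was not called. Matr3, a nuclear matrix protein that acts with Ptbp1, was called lower in both mutants (-1.42 and -1.73). The largest values of the list, named after they were seen, were those of the splicing regulator Mbnl3, called higher (5.09 and 4.99), and of Raver2, a partner of Ptbp1, called lower (-2.63 and -3.00).

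Of 26 general splicing factors, 7 were called lower in the CARM1 knockout (5 without its replicate 3) and 11 in the NFIB mutant, and none higher. Of all genes 18.3% and 23.5% were called lower, and the difference from these shares was not tested. Their medians were -0.46 and -0.68. Hnrnpa2b1 was called lower in both (-0.98 and -1.15), Hnrnpa1 in the NFIB mutant (-0.93, beside -0.58 in the CARM1 knockout; the difference between the mutants was not called), and Hnrnpk and Hnrnpl in neither. Among 3 regulators of epithelial splicing, Rbm47 was called higher in both mutants by 5.64 and 6.34 and Esrp2 by 3.62 and 4.08 on the log2 scale. Esrp1 was listed at 46.6 CPM in CARM1 knockout replicate 3 and at 0.911 CPM or less in the other 8 libraries, and was not called.

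Transcripts known as targets of the 10 proteins were also counted, as levels and not as exon choices. Of 24 listed genes 23 could be tested. In the CARM1 knockout 3 were called higher and 6 lower (2 and 12 without its replicate 3), and in the NFIB mutant 2 higher and 12 lower, with medians of -1.06 and -1.37. Of all genes tested, 20.5% were called higher and 18.3% lower in the CARM1 knockout. In the NFIB mutant these shares were 22.3% and 23.5%, and the difference of the list from them was not tested. Flna, an actin crosslinker whose exon is repressed by Ptbp1, rose by 2.998 and 2.79 on the log2 scale. Kif1b, a kinesin, was called lower in both mutants (-0.96 and -0.83). Marcks, a Hu-bound message, was called lower in the NFIB mutant (-0.89) and not in the CARM1 knockout (-0.19), with no call between the mutants (adjusted p = 0.487, edgeR), and Agrn was called in neither.

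Between the mutants no member was called. The test over all 15514 genes called 0% higher and 0% lower by edgeR, with 1415 genes at an unadjusted p under 0.05, while DESeq2 called 316 genes higher and 222 lower in the CARM1 knockout. Of the members, 3 had an unadjusted p under 0.05, Srrm4 (0.0163), Nova2 (0.0361) and Elavl3 (0.0426), all higher in the CARM1 knockout, and each has its highest mutant library in CARM1 knockout replicate 3. DESeq2 called 1 of them, Srrm4, higher by 3.65 on the log2 scale (adjusted p = 0.0448), and edgeR gave 3.64 (adjusted p = 0.524). For Elavl3 and Elavl4 DESeq2 gave no adjusted p in any comparison, so it could not call them. Without CARM1 knockout replicate 3, edgeR gave 2.01 for Srrm4 (adjusted p = 0.775). A p that misses the threshold does not show that the mutants were alike.

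Accessibility fell in most peaks of the 10 genes. Of the 152 peaks, 150 were tested, and 1 each of Nova1 and Rbfox1 had too few reads. edgeR, at an adjusted p under 0.1 and a log2 fold change of at least 0.5 in size, called 120 lower and 13 higher in the CARM1 knockout and 121 lower and 15 higher in the NFIB mutant. Among all 111116 peaks tested, 32.4% were lower and 38.7% higher in the CARM1 knockout, and 34.0% lower and 39.3% higher in the NFIB mutant. The median log2 fold changes of the members' peaks were -3.32 and -3.24, beside 0.22 in each mutant over all peaks. In 111 peaks all 6 mutant libraries lay below all TKO libraries and in 11 above, where 28.6% and 33.1% of all peaks did so. Peaks of 1 gene share its locus and are not replicates, and 97 of the 152 lie in Rbfox1 and Rbfox3. Without these 2 genes 38 of 54 tested peaks were lower in each mutant, and 6 and 8 were higher. Without CARM1 knockout replicate 3 the counts in that mutant were 121 lower and 14 higher. The study describes both assays as run on the same tumor biopsies, and the replicate numbers were not used to match libraries of the 2 assays.

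The scaling of ATAC-seq libraries matters for small changes. Scaling by library totals moved the median of all peaks from 0.22 to 0.79 in both mutants. It left 112 member peaks lower and 16 higher in the CARM1 knockout and 116 and 18 in the NFIB mutant. In RNA-seq the same choice moved the median of all genes from -0.03 and -0.05 to -0.30 and -0.37 and left the counts of called members at 8 and 9. For ATAC-seq the study estimated depth from start-site peaks of uniformly expressed genes. A scaling of that kind here moved the median of all peaks to 0.62 in the CARM1 knockout and 0.70 in the NFIB mutant. The member peaks called under it are not counted here.

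**Figure D4:**
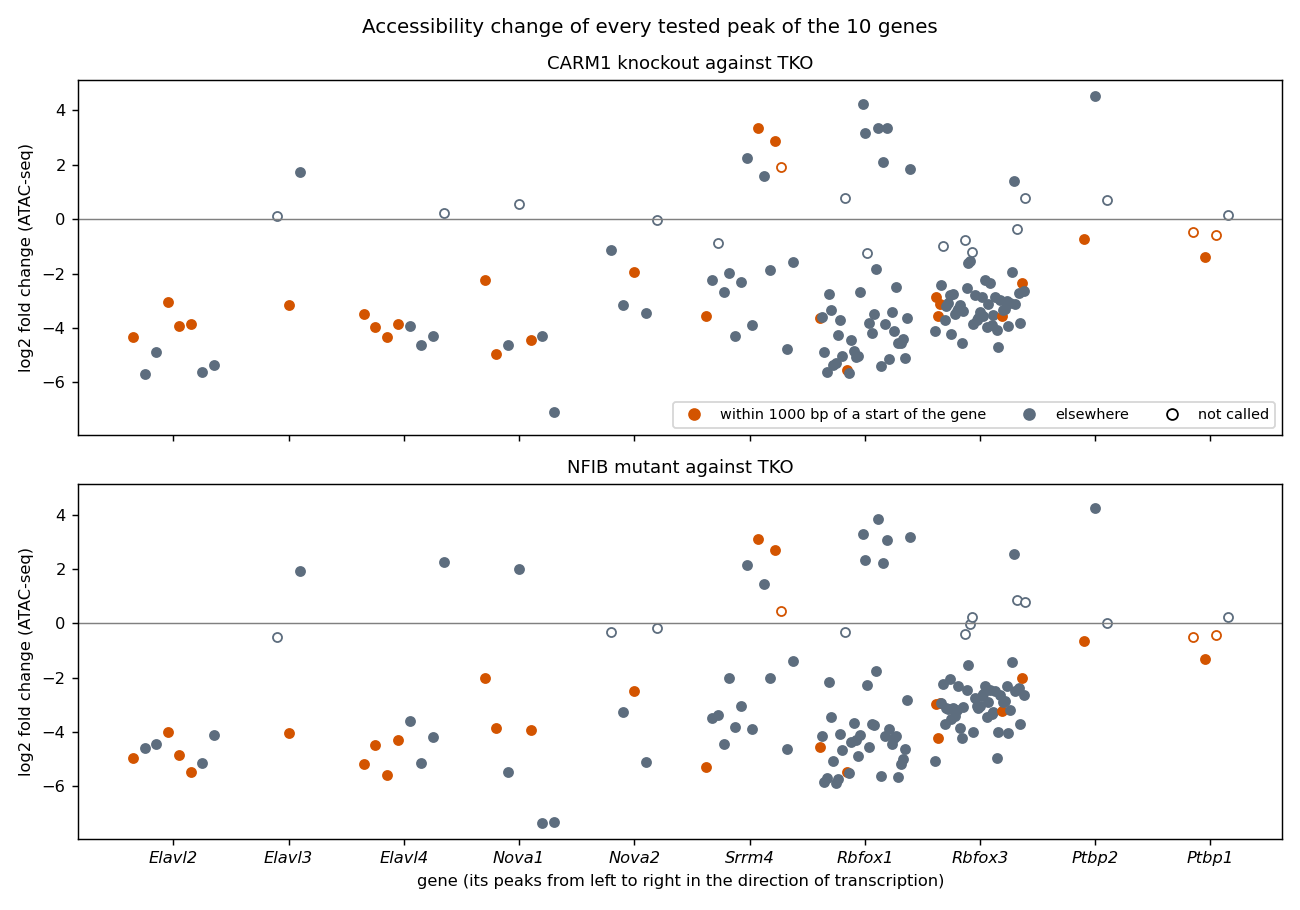
Log2 fold change of every tested peak of the 10 genes in the CARM1 knockout (top) and the NFIB mutant (bottom), ordered along each gene in the direction of transcription, with peaks within 1000 bp of a start of the gene in orange and open circles where not called. All 8 Elavl2 peaks lie between -5.71 and -3.05 (top) and -5.47 and -4.02 (bottom), and peaks called higher in both mutants lie in Elavl3, Srrm4, Rbfox1, Rbfox3 and Ptbp2.

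At the starts of the genes, within 1000 bp of an annotated start, 28 peaks were tested, and 23 were lower and 2 higher in each mutant. Of all peaks tested, 32.4% were lower in the CARM1 knockout and 34.0% in the NFIB mutant. A share over start peaks alone is not given here. The Elavl3 start peak (chr9:22049022-22052561) had 68.0, 62.9 and 61.9 CPM in TKO, 4.03, 5.47 and 12.2 CPM in the CARM1 knockout and 4.03, 3.80 and 4.02 CPM in the NFIB mutant. Its log2 fold changes were -3.15 ± 0.35 (adjusted p = 8.1e-05, edgeR) and -4.02 ± 0.37 (adjusted p = 2.63e-05), so it was called in the CARM1 knockout, where the Elavl3 transcript was not. CARM1 knockout replicate 3 was again the highest mutant library, and without it the former was -3.75. An intron peak of Elavl3 (chr9:22020444-22021257, named after its values were seen) was called higher in both mutants, with 1.11 to 1.70 CPM in TKO and 4.18 to 7.39 CPM in the mutants (log2 fold changes 1.73 and 1.91).

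The main Elavl4 start peak (chr4:110350856-110352482) had 42.8, 48.8 and 38.1 CPM in TKO, 2.04, 2.15 and 7.23 CPM in the CARM1 knockout and 1.20, 0.625 and 1.76 CPM in the NFIB mutant, changes of -3.51 and -5.17 on the log2 scale. That of Elavl2 (chr4:91370915-91372696) had 49.4, 30.01 and 9.12 CPM in TKO and 0.553 to 4.16 CPM in the mutants, and its log2 fold changes were -3.85 and -5.47. TKO replicate 3 was low here as it was for the Elavl2 transcript. In the CARM1 knockout without its replicate 3 the start peak of Elavl4 had -4.36 and that of Elavl2 -4.88. All 8 Elavl2 peaks and 7 of the 8 Elavl4 peaks were called lower in both mutants.

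The main Nova1 start peak (chr12:46817418-46820390) kept more of its reads, with 61.3, 64.8 and 48.8 CPM in TKO, 8.24, 5.45 and 23.4 CPM in the CARM1 knockout and 8.22, 17.1 and 18.0 CPM in the NFIB mutant (log2 fold changes -2.24 and -2.01). Among the members' peaks of at least 1 CPM on average whose mutant and TKO libraries did not overlap, the largest fall was at the other end of the gene (chr12:46698143-46699365, over its 3′ untranslated exon), with 18.2, 43.7 and 22.4 CPM in TKO and 0.0384 to 0.435 CPM in the mutants. Its log2 fold changes were -7.08 and -7.30. The Nova2 start peak (chr7:18924835-18927167) changed by -1.95 and -2.49. The most read peak of Nova2 lies 21965 bp from its nearest start (chr7:18947853-18950890) and had 60.9, 56.9 and 35.6 CPM in TKO, 1.76, 3.44 and 8.94 CPM in the CARM1 knockout and 1.58, 1.56 and 1.29 CPM in the NFIB mutant, with log2 fold changes of -3.44 and -5.11. Leaving out CARM1 knockout replicate 3, that mutant's values were -3.08 at the Nova1 start, -8.21 at its other end and -4.29 at this Nova2 peak.

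Srrm4 had peaks that changed in both directions. Its main start peak (chr5:116590769-116593563) had 40.3, 42.1 and 35.3 CPM in TKO, 0.878, 1.25 and 7.74 CPM in the CARM1 knockout and 1.10, 0.962 and 0.961 CPM in the NFIB mutant (log2 fold changes -3.58 and -5.28, adjusted p = 0.00132 and 0.000232, edgeR), and the former was -5.19 without CARM1 knockout replicate 3. Of its 16 peaks 10 were called lower and 4 higher in the CARM1 knockout and 11 and 4 in the NFIB mutant. The largest of these rises, near an annotated start inside the gene (chr5:116453315-116453873), went from 0.128, 0.340 and 0.422 CPM in TKO to 2.76 to 3.25 CPM in the CARM1 knockout and 2.35 to 2.79 CPM in the NFIB mutant. All 6 mutant libraries were higher. Its log2 fold changes were 3.34 and 3.08, on a level far below that of the start peak.

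Rbfox1 and Rbfox3 are long genes with many small peaks. In Rbfox1 33 of 41 tested peaks were lower and 6 higher in the CARM1 knockout and 34 and 6 in the NFIB mutant. The start peak with most reads (chr16:6348205-6349854) had 28.0, 36.0 and 25.1 CPM in TKO and 0.457 to 0.986 CPM in the mutants, with log2 fold changes of -5.56 and -5.49. In Rbfox3 49 of 55 peaks were lower and 1 higher in each mutant. Its main start peak (chr11:118908070-118910518) had 36.4, 31.3 and 22.0 CPM in TKO and 1.18 to 3.63 CPM in the mutants, changes of -3.55 and -4.22 on the log2 scale. CARM1 knockout replicate 3 summed over all peaks of a gene to 13.8% of the TKO mean for Rbfox1 and 14.8% for Rbfox3, beside 39.7% for Elavl3 and 28.9% for Srrm4.

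Peak centres of 200 bases on the plus strand of GRCm38.p6 are printed to set a Rbfox1 peak that fell beside a peak that rose. The largest fall of Rbfox1 (peak chr16:5911462-5912767) had 14.7, 29.1 and 20.8 CPM in TKO and 0.294 to 0.518 CPM in the mutants, and is centred at chr16:5912015-5912214. The largest rise of Rbfox1 (chr16:6841857-6842663) had 0.478, 0.154 and 0.169 CPM in TKO, 3.23, 3.40 and 1.64 CPM in the CARM1 knockout and 6.57, 1.76 and 3.24 CPM in the NFIB mutant, and is centred at chr16:6842161-6842360. Capitals mark the AP-1 site TGANTCA in the peak that rose, and none of the searched motifs was in the centre of the peak that fell.
Rbfox1 largest fall: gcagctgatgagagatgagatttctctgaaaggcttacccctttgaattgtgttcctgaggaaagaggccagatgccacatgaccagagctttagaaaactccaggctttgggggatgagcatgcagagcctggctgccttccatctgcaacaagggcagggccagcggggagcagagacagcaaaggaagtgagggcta
Rbfox1 largest rise: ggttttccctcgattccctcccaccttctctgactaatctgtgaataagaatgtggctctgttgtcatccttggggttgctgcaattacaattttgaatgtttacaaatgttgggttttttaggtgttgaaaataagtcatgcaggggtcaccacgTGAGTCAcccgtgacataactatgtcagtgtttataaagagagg
Both lie in introns. The most read Rbfox1 peak away from a start, also in an intron (chr16:6478815-6480641), had 45.5, 50.6 and 7.90 CPM in TKO and 0.625 to 1.92 CPM in the mutants.

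Motifs were counted over the central 300 bases of the 118 member peaks that were called lower in both mutants and the 13 called higher in both. The AP-1 site was in 13 of the 118 and in 8 of the 13, beside 23.7% of all peaks, 7.89% of all 34174 lower peaks and 41.7% of all 38887 higher peaks. The NFI core was in 59 of the 118 lower peaks of the members, 56.9% of all lower peaks and 50.6% of all peaks, and in 2 of the 13 higher peaks of the members and 46.6% of all higher peaks. The full NFI site, TTGGC and GCCAA 5 bases apart, was in 0 of the 152 member peaks and in 0.1% of all peaks. It was in 0.208% of all lower peaks and 0.0283% of all higher peaks. At shares this low, its absence from the member peaks says little. These are matches of letters and not sites shown to be bound.

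Around Ptbp2 the changes were small at the start and large in a minor peak. The start peak (chr3:119781992-119784043) had 36.1, 37.5 and 40.5 CPM in TKO, 16.5, 28.3 and 24.9 CPM in the CARM1 knockout and 19.6, 30.3 and 23.4 CPM in the NFIB mutant. Its log2 fold changes of -0.71 and -0.64 were called (adjusted p = 0.0171 and 0.0262, edgeR) but became -0.13 and -0.08 with library totals and were then not called. An intron peak of 474 bp (chr3:119771381-119771854) had 0.0637, 0 and 0.169 CPM in TKO, 2.43, 1.07 and 1.74 CPM in the CARM1 knockout and 1.49, 1.27 and 1.49 CPM in the NFIB mutant. This was the largest rise among the members' peaks of at least 1 CPM on average (log2 fold changes 4.54 and 4.24). It stood at a low level, in a gene whose transcript fell. None of the searched motifs was in its central 200 bases (chr3:119771518-119771717, plus strand), which are printed for that reason.
Ptbp2 intron peak that rose: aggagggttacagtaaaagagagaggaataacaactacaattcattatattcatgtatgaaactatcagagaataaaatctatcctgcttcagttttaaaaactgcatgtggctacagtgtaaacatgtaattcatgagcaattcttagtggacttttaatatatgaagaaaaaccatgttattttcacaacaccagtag

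The peaks of Ptbp1 were not called, with 1 exception. Its main start peak (chr10:79851828-79856258) had 98.3, 98.4 and 98.0 CPM in TKO, 63.0, 81.7 and 67.2 CPM in the CARM1 knockout and 50.6, 87.7 and 70.2 CPM in the NFIB mutant. The log2 fold changes of -0.48 and -0.50 were not called and turned to 0.10 and 0.07 with library totals. At this peak all 6 mutant libraries lay below all 3 TKO libraries. That was so in 2 of the 4 Ptbp1 peaks, and in 28.6% of all peaks. Of its 4 peaks, 1 was called lower in each mutant (chr10:79856370-79859726, log2 fold changes -1.41 and -1.33, named after its values were seen). The 250 bases before its start (chr10:79854182-79854431, plus strand, RefSeq, GRCm38.p6) are shown as those of the member whose transcript was not called, with 1 NFI core motif in capitals. Their last 5 bases fall in an annotated 5′ untranslated exon.
Ptbp1 upstream: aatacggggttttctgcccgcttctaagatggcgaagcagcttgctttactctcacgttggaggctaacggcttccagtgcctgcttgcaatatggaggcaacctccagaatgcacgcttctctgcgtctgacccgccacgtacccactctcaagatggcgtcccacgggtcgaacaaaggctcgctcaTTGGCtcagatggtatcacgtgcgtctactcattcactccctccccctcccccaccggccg
Of the 19 RefSeq promoters of the 10 genes, 17 lay in a peak, and 12 held the NFI core, 1 GGACAGC and 0 the AP-1 site. Of all 32817 RefSeq promoters, 46.7% held the NFI core, 6.56% GGACAGC and 7.81% the AP-1 site. Several promoters of Elavl2 and of Elavl4 overlap each other, so some NFI cores were counted more than once. The difference from these shares was not tested.

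No member peak was called between the mutants. edgeR called 0% of the 111116 peaks in either direction, with 6814 at an unadjusted p under 0.05, and DESeq2 called 523 higher and 537 lower in the CARM1 knockout. Of the members' peaks 10 had an unadjusted p under 0.05, and DESeq2 called 0 of them.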

How the data were processed

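RNA-seq and ATAC-seq were analysed in 9 libraries each, 3 per genotype. The authors trimmed RNA-seq reads with Trim Galore, aligned them to mm10 (GRCm38) with HISAT2 and counted them per gene with htseq-count, and the deposited counts are raw reads per gene. They aligned ATAC-seq reads with Bowtie2, removed duplicates with Picard, left out regions of altered copy number and deposited raw counts per peak. MACS2 is named as the peak caller in the study's methods and Genrich in the submitters' processing notes. Per the file headers featureCounts counted the peaks on single reads without strand, where the methods name bedtools, and strand use for genes is not given in the sources used here. Replicates were not pooled.

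Library sizes and tests used gene rows only, without the 5 summary entries of the gene table. Reads on no feature were 10.0% to 12.2% in TKO and 3.65% to 5.17% in the mutants. Gene names and exons came from GENCODE, which matched 45143 of 46078 IDs, and sequences from RefSeq GRCm38.p6. Counts were tested in edgeR 4.0.16 (R 4.3.3) with its default filter on low counts, TMM scaling and the robust quasi-likelihood fit over all 3 genotypes, and p-values were adjusted over all features. Other settings were DESeq2 1.42.0, RLE and total-count scaling, scaling on peaks at stably expressed genes' starts, other filters, a replicate term and leaving out each library. Figures used matplotlib 3.10.9.

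The 10 genes and all lists were chosen with earlier results of these data known. Named are all members, the 4 most abundant genes of each other list with Rest, Elavl1, Rbfox2, Ptbp3 and Esrp1, and for each member the most read peak at a start and elsewhere, with the 3 largest rises and falls. Replicate numbers did not pair the libraries, with correlations of -0.256 to 0.117 between libraries of the same number in RNA-seq and -0.146 to 0.106 in ATAC-seq. P-values measure the spread between animals.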

Additional observations from a re-analysis of the deposited data

How the results depend on the processing

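Keeping only features with at least 10 counts in every library left 2 members to test, of which 1 was called lower in each mutant, and 64 peaks, of which 56 were called in the CARM1 knockout (4 higher, 52 lower) and 54 in the NFIB mutant (4 higher, 50 lower), since this filter removes features that are absent from the mutants. With library totals 34 of the related genes were called lower in the CARM1 knockout, beside 22 with TMM scaling, and 41 in all beside 31. DESeq2 called 1 member higher in the CARM1 knockout than in the NFIB mutant. Leaving out single libraries gave 6 to 9 members called in the CARM1 knockout and 9 in the NFIB mutant, 128 to 137 peaks (12 to 14 higher, 115 to 123 lower) and 133 to 138 peaks (12 to 15 higher, 120 to 123 lower), and 0 between the mutants. Related genes called ranged from 22 to 34 (6 to 9 higher, 16 to 26 lower) in the CARM1 knockout and from 36 to 50 (9 to 11 higher, 26 to 39 lower) in the NFIB mutant.

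The replicate block left 6 members lower in the CARM1 knockout and 9 in the NFIB mutant, 131 peaks called (13 higher, 118 lower) and 134 (13 higher, 121 lower), and 0 between the mutants. The numbers are shared without pairing the samples. For the ratio of Ptbp2 to Ptbp1 the block gave -2.41 (exact permutation p = 0.25, the smallest it allows). Without a TKO library the log2 difference ran from -2.58 to -2.07 (exact permutation p = 0.0714, the smallest possible), and a p in these smaller designs could not pass the threshold.

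Single values that turned direction were all uncalled. Leaving out single libraries moved Esrp1 from -6.14 (without CARM1 knockout replicate 3) to 5.83 in the CARM1 knockout and from -1.89 to 0.37 in the NFIB mutant. Agrn in the CARM1 knockout ranged from -0.39 to 0.39. The Ptbp1 start peak turned to 0.10 and 0.074 with library totals. The Ptbp1 gene-end peak turned to -0.0065 with RLE scaling and -0.0014 with DESeq2. The Elavl3 upstream peak in the CARM1 knockout turned to -0.059 with RLE and -0.054 with DESeq2 and ranged from -0.18 to 0.43 without single libraries, and in the NFIB mutant to 0.11 with library totals and 0.011 with scaling on start-site peaks. The cause was not tested. Of the other single values 1640 kept direction and call, 27 gained a call and 42 lost it.

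Depth limits the mutant levels: 5 of 6 mutant libraries had at most 3 counts of Rbfox3 4 of 6 of Elavl2 and of Elavl3, and 3 of 6 of Elavl4 and of Rbfox1, so the size of their folds is uncertain. Cell makeup and RNA level per cell cannot be told apart, and counts per gene say nothing of exon choice.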
